A study of Mus musculus with 6 samples.

Results

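The 78 genes described here encode the proteins of the mitochondrial ribosome, as far as their symbols carry the prefixes Mrpl and Mrps. They were chosen from the deposited table as every mouse gene whose symbol starts with Mrpl or Mrps followed by a number, leaving out pseudogenes, and they are 78 of the 52550 mouse genes listed. By the current structural names 51 of them belong to the large subunit and 26 to the small subunit. The remaining gene, Mrps36, keeps its ribosomal symbol although its product (Kgd4) is a subunit of the 2-oxoglutarate dehydrogenase complex of the citric acid cycle. The prefixes also mislead for Mrps18a and Mrps30, whose products sit in the large subunit and are counted there.

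The mitochondrial ribosome translates the few proteins that mitochondrial DNA encodes, all of them subunits of the respiratory chain and ATP synthase. Its ribosomal RNAs come from mitochondrial DNA, whereas each of its proteins is encoded in the nucleus, made in the cytosol and imported. Some of these proteins have homologs in the bacterial ribosome and others exist only in mitochondria. Skeletal muscle is rich in mitochondria, and inherited defects of several of these proteins cause disease of muscle and heart.

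Muscle RNA of 3 FLExDUX4 and 3 wild-type (WT) male mice was read with QuantSeq. This method sequences from the 3′ ends of mRNAs, and since a long transcript yields no more reads than a short one, levels can be set side by side between genes. FLExDUX4 mice were hemizygous for an inverted human DUX4 transgene at the Rosa26 locus, on a B6(Cg) background. No Cre driver is named for them, and the transgene leaks a little DUX4 without recombination. DUX4 is the transcription factor whose misexpression in muscle causes facioscapulohumeral muscular dystrophy. WT mice were their littermates without the transgene. The labels give quadriceps and an age of 13 weeks for both groups, whereas the methods name triceps and a younger age. Reads of the transgene were not analysed here. The comparison asks whether leaky DUX4 came with another level of the transcripts for mitochondrial protein synthesis.

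The table gives for each gene 1 count summed over the mice of a genotype. These sums came to 13110125 counts on genes in FLExDUX4 and 18367364 in WT. The columns of single mice have names that match no sample label and were not used, so the ratios here come with no replicate error and no test, and a single mouse can decide a ratio. After TMM scaling (edgeR), FLExDUX4 was divided by WT and the log2 of this ratio was given a 95% Clopper-Pearson interval, which covers counting error only. A ratio past 1.5-fold is 0.58 or more away from 0 on this scale. Levels are given as CPM, counts relative to the scaled depth of the group. Of all mouse genes 13396 passed the filter on low counts, and they include 76 of the 78 genes described here. Spike-in RNAs added to the samples gave another scale, on which every log2 ratio lay lower by the same amount (-0.28). A ratio given as between 0 and 0.28 is therefore below 0 when scaled to spike-ins. In bulk muscle, fewer cells of a type and less RNA per cell cannot be told apart.

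The stretches of DNA just upstream of the genes give context for the values that follow. RefSeq (GRCm38.p6) gave a window from 250 bases before to 50 bases after the start for 69 of the 78 genes, 75 windows in all. The letters CCGGAAG, the core bound by ETS factors such as GABP, stood on either strand in 34.7% of these 75 windows and in 8.86% of the 32851 windows of all genes. The consensus of the nuclear respiratory factor NRF1 stood in 17.3% against 4.6%. The letters AAGATGGCG, a site of YY1, stood in 10.7% against 1.4%. At least 1 of the 3 was present in 54.7% of the windows, against 13.6% of all windows and 17.9% of the windows of coding genes. The SP core GGGCGG (52% against 35.7%) and the CCAAT box (40% against 37.4%) differed less, and the TATA box TATAAA was found in 6.67% against 13.6%. A match of letters is not a bound site.

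Upstream stretches of 6 genes are printed from 5′ to 3′ in the direction of the gene, ending at the base before the RefSeq start, with an ETS or NRF1 match in capitals. Mrps27 is shown as the gene with the lowest ratio and Mrps18a as one of the highest. Mrpl12 is shown for its NRF1 match, Mrpl42 and Mrps23 as the most abundant transcripts of the large and small subunit, and Mrps36 as the gene whose product is not ribosomal. The positions on GRCm38.p6 are chr13:99344706-99344785 (plus strand) for Mrps27, chr17:46110854-46111003 (plus) for Mrps18a and chr11:120484487-120484636 (plus) for Mrpl12. They are chr10:95501950-95502099 (minus) for Mrpl42, chr11:88204238-88204387 (plus) for Mrps23 and chr13:100744660-100744809 (minus) for Mrps36. The matches in Mrps27 and Mrpl12 read on the opposite strand. The last 3 stretches hold none of the ETS, NRF1 and YY1 letters.
Mrps27: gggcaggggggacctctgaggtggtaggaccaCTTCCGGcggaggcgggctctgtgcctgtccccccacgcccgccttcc
Mrps18a: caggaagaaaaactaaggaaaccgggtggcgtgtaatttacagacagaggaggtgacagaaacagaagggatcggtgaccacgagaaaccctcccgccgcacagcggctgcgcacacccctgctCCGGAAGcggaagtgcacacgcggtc
Mrpl12: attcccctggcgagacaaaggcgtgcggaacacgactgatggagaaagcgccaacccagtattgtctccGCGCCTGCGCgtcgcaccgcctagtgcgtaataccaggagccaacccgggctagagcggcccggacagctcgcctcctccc
Mrpl42: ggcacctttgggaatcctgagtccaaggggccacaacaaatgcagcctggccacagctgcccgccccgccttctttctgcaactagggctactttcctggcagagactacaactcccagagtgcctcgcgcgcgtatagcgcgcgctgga
Mrps23: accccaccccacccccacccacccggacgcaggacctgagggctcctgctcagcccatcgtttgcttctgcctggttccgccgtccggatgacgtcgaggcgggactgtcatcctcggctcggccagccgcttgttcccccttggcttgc
Mrps36: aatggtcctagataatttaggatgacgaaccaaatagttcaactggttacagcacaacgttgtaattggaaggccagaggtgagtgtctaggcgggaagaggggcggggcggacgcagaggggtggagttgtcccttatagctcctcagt

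Summed over the 76 compared genes, the transcripts of the group were at near-equal levels in both genotypes. Their counts came to 35807 in FLExDUX4 and 50548 in WT, which is 2760 and 2724 CPM and a log2 ratio of 0.02 (interval 0.00 to 0.04). The counts of all 13396 genes summed to a ratio of 0.03 on the same scale. The median of the 76 genes was 0.015, against 0.00 over all 13396. With ratios above 0 in 42 genes and below 0 in 34, neither direction dominated. This split turned to 34 above and 42 below when the totals were scaled by gene counts alone, and to 14 and 62 with spike-ins, where the sum gave -0.26.

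The genes also stayed close to 0 one by one. Their ratios ran from -0.83 to 0.47, with a median size of 0.16, against 0.28 over all genes. None was 1.5-fold or more higher in FLExDUX4, where 13.2% of all genes were. Lower by 1.5-fold or more were 3 (Mrps27, Mrps36 and Mrps21), against 13.5% of all genes. Few counts spread a ratio, so the fairer background is that of genes of like depth. At like depth the median size of the ratio was close to that of other genes, 0.13 against 0.11 with over 1000 counts and 0.25 against 0.26 with 100 to 1000. Of the 38 members with 100 to 1000 counts in both groups together, 0 were past 1.5-fold higher and 2 lower, while 8.64% and 8.08% of the 6573 genes of that depth were. The interval lay above 0 for 19 of the 76 genes and below 0 for 15, against 20.5% and 20.6% of all genes. Among the 36 members with 1000 counts or more it lay above 0 for 10 and below 0 for 4, against 24.2% and 24.8% of genes of that depth. The counts above 0 are close to the background, and the 4 below 0 are fewer. Such counts move with the scaling. Of the 76 genes, 15 lay below 0 with TMM, 19 with upper-quartile scaling and 20 with gene totals. With spike-ins 0 members were 1.5-fold higher and 8 lower, beside 7.82% and 23.7% of all genes on that scale, and intervals lay above 0 for 0 and below 0 for 46, beside 7.59% and 47.1%. A looser threshold of fold took in 8 members on either side, beside 22.6% of all genes higher and 22.8% lower, and none was 2-fold lower, beside 7.43%.

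**Figure D1:**
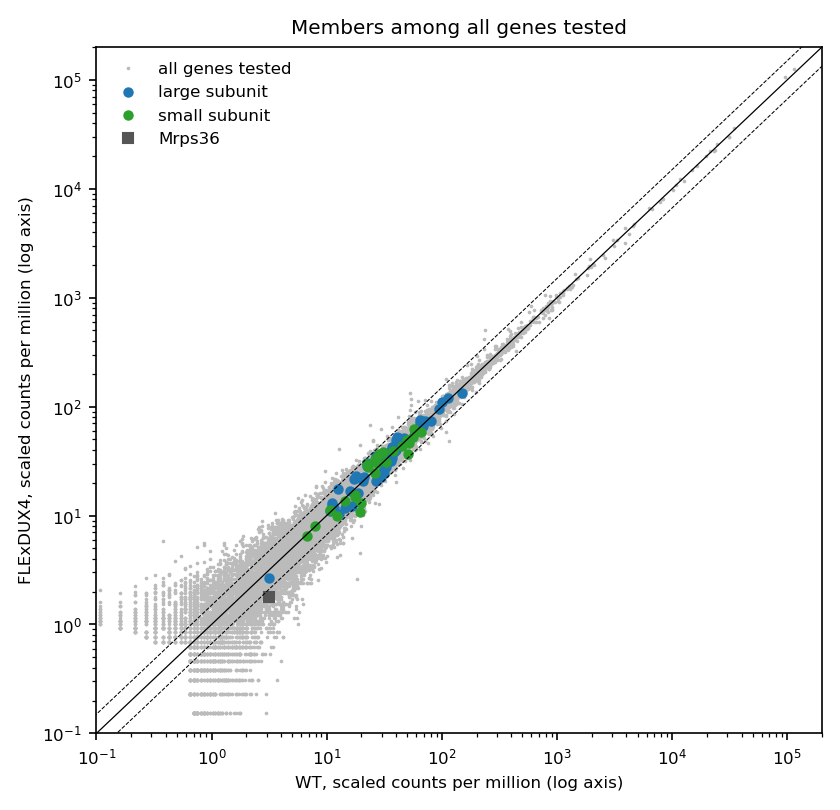
Scaled CPM of each gene in FLExDUX4 (vertical, log axis) against WT (horizontal, log axis), summed over the 3 mice of a genotype, for genes with counts in both groups; grey points are all genes compared, blue and green points are genes of the large and small subunit and the square is Mrps36. The solid line marks equal levels and the dashed lines 1.5-fold, and only 3 of the 76 coloured points lie outside them, all on the lower side.

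Large-subunit transcripts made up most of the signal. This subunit holds the peptidyl transferase centre and the exit tunnel for the new chain. Its genes summed to 2013 CPM in FLExDUX4 and 1963 CPM in WT (log2 ratio 0.04, interval 0.01 to 0.06). The sum over all genes compared gave 0.03 on this scale, so the interval holds that background. Of the 50 compared, 32 had a ratio above 0 and 18 below. None passed 1.5-fold, beside 13.2% of all genes higher and 13.5% lower, and 23 and 11 of the 2727 genes with 1000 or more counts. The 30 with a bacterial homolog split 16 to 14 with a median of 0.00. The 20 that structural names place as found only in mitochondria split 16 to 4 with a median of 0.11 and a summed ratio of 0.07 (interval 0.03 to 0.11). They include Mrps18a, a paralog of the bacterial S18 family, and without it, a choice made after seeing the data, the split was 15 to 4, the median 0.08 and the summed ratio 0.06 (interval 0.02 to 0.10). With spike-ins all of these medians and sums are below 0.

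The most abundant member was Mrpl42, a protein found only in mitochondria, with 1718 counts in FLExDUX4 and 2781 in WT. This is 132 and 150 CPM, and its ratio of -0.18 (interval -0.27 to -0.09) was among the most precise of the group. The gene (ENSMUSG00000062981) lies at chr10:95480805-95501940 on the minus strand of GRCm38, and its upstream stretch is printed above. Mrpl14, a homolog of bacterial L14 at the face that meets the small subunit, followed with 1541 and 2086 counts and a ratio of 0.08 (interval -0.02 to 0.18). Mrpl30 had 1424 and 1844 counts and a ratio of 0.14 (interval 0.04 to 0.24). Mrpl18, a homolog of the bacterial protein that binds 5S rRNA, had 1232 and 1754 counts and a ratio of 0.01. For Mrpl2, which lies next to the peptidyl transferase centre, the counts were 966 and 1496 and the ratio -0.11 (interval -0.23 to 0.00). The 5 most abundant transcripts of this subunit thus went in both directions, by small amounts.

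Several large-subunit members have a known part in the function of the ribosome or in disease. Mrpl12 and Mrpl10 form the stalk that recruits translation factors, and Mrpl12 is also reported to bind the mitochondrial RNA polymerase. Mrpl12 had 816 and 1123 counts and a ratio of 0.06 (interval -0.08 to 0.19), whereas Mrpl10 had 210 and 344 counts and -0.19 (interval -0.45 to 0.06). Both intervals hold 0. Mrpl3 and Mrpl44, in both of which mutations cause cardiomyopathy in people, were at near-equal levels. Their counts were 499 and 713 for Mrpl3 and 268 and 382 for Mrpl44, with ratios of 0.00 (interval -0.17 to 0.17) and 0.01 (interval -0.23 to 0.23). Mrpl45, which anchors the ribosome to the inner membrane near the exit tunnel, had 674 and 794 counts and a ratio of 0.28 (interval 0.13 to 0.43), the size of the spike-in shift. Mrpl58, a peptidyl-tRNA hydrolase built into the subunit that can rescue stalled ribosomes, had 269 and 494 counts and a ratio of -0.36 (interval -0.58 to -0.14).

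The highest ratio of the group was that of Mrpl49, with 226 and 233 counts and 0.47 (interval 0.20 to 0.74). Next came Mrps18a (0.45) and Mrps18c (0.42), both described with their paralogs, then Mrpl43 with 460 and 496 counts and 0.41 (interval 0.22 to 0.59). The lowest of the large subunit was Mrpl27, a homolog of bacterial L27 whose end reaches the peptidyl transferase centre, with 159 and 306 counts and -0.43 (interval -0.71 to -0.15). Mrpl49, Mrpl43, Mrpl27, Mrpl53, Mrpl23, Mrpl32 and Mrps28 were named after their values were seen. The last 300 exonic bases of Mrpl49, where QuantSeq reads fall, share 91 bases with Syvn1 on the opposite strand (ratio 0.31, 254 and 293 counts), and the strand setting of the counting is not given in the sources used here.

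**Figure D2:**
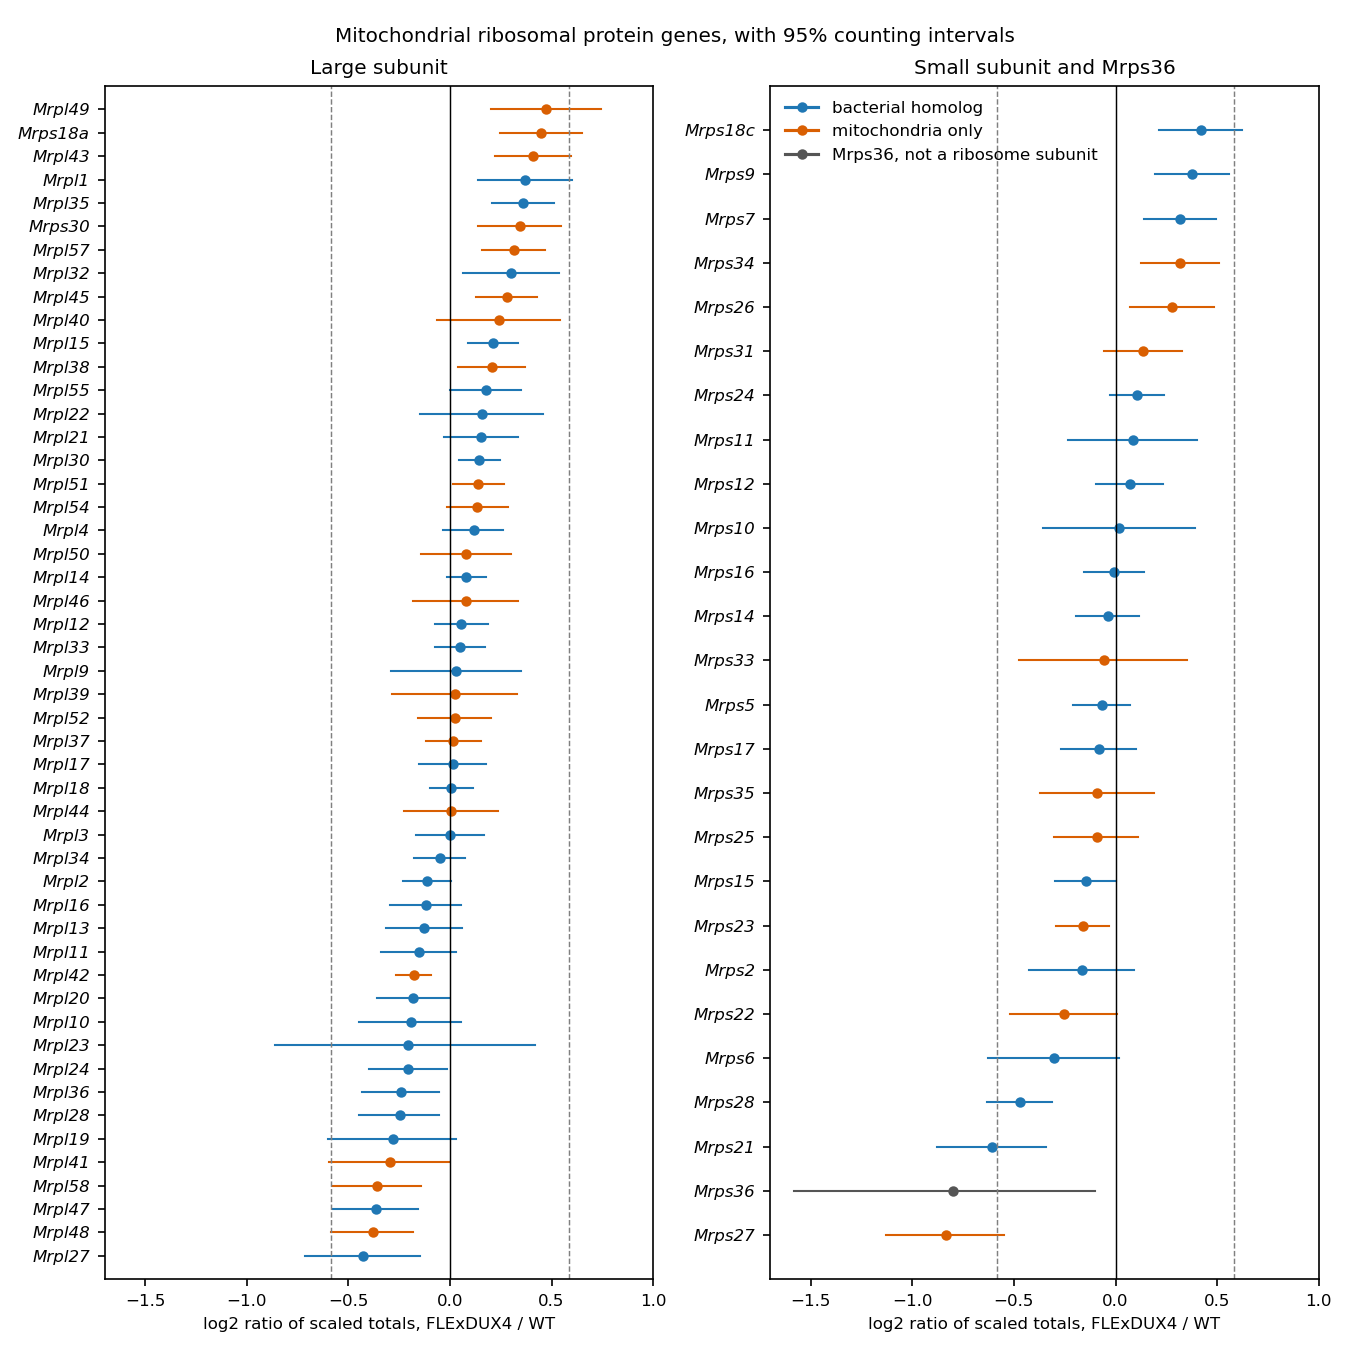
Log2 ratio of FLExDUX4 to WT scaled totals for the 50 large-subunit genes (left) and the 25 small-subunit genes with Mrps36 (right), sorted by ratio; points are ratios, bars are 95% counting intervals, dashed lines mark 1.5-fold, and colours separate proteins with a bacterial homolog, proteins found only in mitochondria and Mrps36. Both panels cross 0, with Mrpl49 highest at 0.47 and Mrps27 lowest at -0.83; with spike-in totals every point moves by -0.28.

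Transcripts of the compared small-subunit genes summed to 745 CPM in FLExDUX4 and 758 CPM in WT, a log2 ratio of -0.02 (interval -0.06 to 0.01). This subunit binds the messenger RNA and decodes it. Of its 25 compared genes, 10 had a ratio above 0 and 15 below, 0 were 1.5-fold higher and 2 were 1.5-fold lower, beside 13.2% and 13.5% of all genes. The 16 with a bacterial homolog split 7 to 9 and the 9 found only in mitochondria 3 to 6, with medians of -0.02 and -0.09. The 5 most abundant were Mrps23, Mrps24, Mrps5, Mrps16 and Mrps15, of which Mrps24 was the one with a ratio above 0. Mrps23 had 763 and 1221 counts, or 58.8 and 65.8 CPM, and a ratio of -0.16 (interval -0.29 to -0.03). Mrps24 had 804 and 1068 counts and 0.11 (interval -0.03 to 0.24). Mrps5, a homolog of the bacterial accuracy protein S5, had 689 and 1033 counts and -0.07 (interval -0.21 to 0.07). The remaining 2, Mrps16 (640 and 920 counts) and Mrps15 (604 and 956 counts), had ratios of -0.01 and -0.15, with intervals that hold 0.

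Mrps27, the member that stood farthest from 0, had 141 counts in FLExDUX4 and 360 in WT. That is 10.9 against 19.4 CPM, a ratio of -0.83 (interval -1.13 to -0.55) or 0.561 of the WT level. It is a pentatricopeptide repeat protein, a class that binds RNA. The gene (ENSMUSG00000041632) lies at chr13:99344786-99415562 on the plus strand. Its neighbour Ptcd2, a further pentatricopeptide repeat gene, starts 81 bases upstream on the opposite strand and had 314 and 398 counts and a ratio of 0.17 (interval -0.04 to 0.39). The intervals of Mrps27 and Ptcd2 do not overlap.

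Mrps21, a homolog of bacterial S21, had 170 and 371 counts, or 13.1 and 20.0 CPM, and a ratio of -0.61 (interval -0.88 to -0.34). The gene (ENSMUSG00000054312) lies at chr3:95862634-95871519 on the minus strand. Its ratio is just past 1.5-fold, and the next, Mrps28, lay inside at -0.47 (interval -0.63 to -0.31) with 478 and 948 counts. Mrps36 had 23 and 58 counts and a ratio of -0.80 (interval -1.58 to -0.10), and with so few counts its interval reaches from near 0 to about 3-fold lower. Left out as not ribosomal, Mrps36 takes 1 of the 3 genes past 1.5-fold with it. The 3 pseudogenes Mrps36-ps1 (4 and 1 counts), Mrps36-ps2 (7 and 15) and Mrps36-ps3 (1 and 0) may share reads with it, so its counts are uncertain.

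Of the other small-subunit proteins named for their function, Mrps12, Mrps2 and Mrps22 had intervals that hold 0 and Mrps34 did not. Mrps12, the homolog of the bacterial streptomycin-resistance protein at the decoding centre, had 512 and 698 counts and a ratio of 0.07 (interval -0.10 to 0.24). Mrps2 had 202 and 324 counts and -0.16 (interval -0.43 to 0.09). Mrps22 and Mrps34, whose mutations cause mitochondrial disease in people, went opposite ways. For Mrps22 the counts were 193 and 329 and the ratio -0.25 (interval -0.52 to 0.01). For Mrps34 they were 425 and 488 and the ratio 0.32 (interval 0.13 to 0.51). All of the last 300 exonic bases of Mrps34 are also annotated to Nme3 on the same strand (0 and 1 counts) and 106 of them to Mapk8ip3 on the opposite strand (119 and 137 counts), so its value is uncertain.

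Mrps18a, Mrps18b and Mrps18c are paralogs of the bacterial S18 family. Mrps18a, in the large subunit, had 393 and 412 counts, or 30.3 and 22.2 CPM, and a ratio of 0.45 (interval 0.25 to 0.65). Mrps18c, in the small subunit, had 387 and 414 counts, or 29.8 and 22.3 CPM, and a ratio of 0.42 (interval 0.22 to 0.62). Mrps18b, also in the small subunit, had 6 and 7 counts and did not pass the filter. Mrps18a and Mrps18c thus had like levels and like ratios, among the highest of the group. With spike-ins their ratios were 0.17 and 0.14, and no member then had an interval above 0. Mrps18b counts are few and hard to read. All of its last 300 exonic bases overlap the antisense gene Gm16279 (0 and 2 counts). Other members with such a full antisense overlap had 957 and 811 counts in both groups together. The part of the overlap in the low Mrps18b counts was not tested. Of Mrpl53, the other member that did not pass the filter, no read was counted in either genotype, which allows up to 0.231 CPM in FLExDUX4 and 0.162 CPM in WT. Its whole 3′ end is also annotated to Gm42688 on the same strand, which had 0 and 3 counts, so the count of 0 does not show that the gene is silent.

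**Figure D3:**
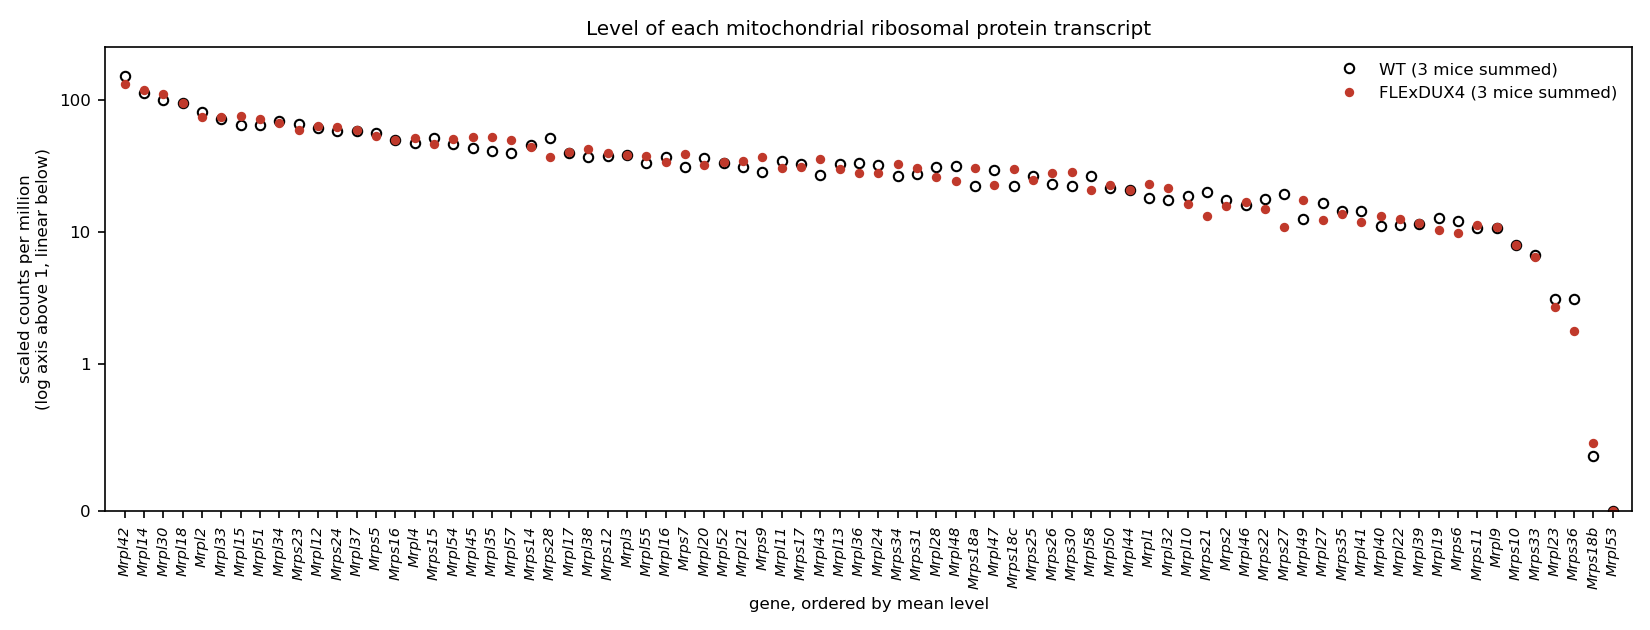
Scaled CPM of each of the 78 genes in WT (open) and FLExDUX4 (filled), summed over the 3 mice of a genotype and ordered by mean level on an axis that is logarithmic above 1 and linear below. Most genes lie between 10 and 150 CPM, the open and filled points lie close together for most, with a visible gap for Mrps27, Mrps21 and Mrps36, and Mrpl23, Mrps36, Mrps18b and Mrpl53 fall off at the right end.

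Levels spread far more between genes than between genotypes. The median gene had 30.7 CPM, averaged over both groups, and the range over the 76 compared genes ran from 2.45 CPM (Mrps36) to 141 CPM (Mrpl42). Mrpl23, the least abundant ribosomal member among them, had 35 and 58 counts and a ratio of -0.20 (interval -0.86 to 0.42), and its listed pseudogene had 23 and 31. Most of the products stand in the ribosome in a single copy.

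In the genome the 78 genes are spread over 17 chromosomes, with 11 on chromosome 11 and 8 on chromosome 17. A coding gene started on the opposite strand within 1000 bases upstream of 18 of them (23.1%), against 6.79% of 21951 coding genes. The genes of such a pair could differ widely in level. Mrps12 starts 172 bases from Sars2, the mitochondrial seryl-tRNA synthetase (64 and 79 counts against 512 and 698). Mrps18c starts 29 bases from the helicase gene Helq, which had 30 and 27 counts. Mrpl32 and the proteasome gene Psma2 lie 75 bases apart and had ratios of 0.30 (interval 0.06 to 0.54) and 0.15 (interval 0.05 to 0.25).

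Of the 5 mitoribosomal proteins whose genes carry other names, 2 had a ratio above 0 and 3 below, with a median of -0.03. None passed 1.5-fold, and the interval lay above 0 for 1 and below 0 for 2, beside 20.5% and 20.6% of all genes. Chchd1 was as abundant as the top members, with 1343 and 1967 counts and -0.03 (interval -0.14 to 0.07). Dap3, a GTP-binding protein of the small subunit, had 383 and 684 counts and -0.32 (interval -0.50 to -0.14). The lowest was Ptcd3, a further pentatricopeptide repeat protein of the small subunit, with 144 and 281 counts and -0.45 (interval -0.75 to -0.15). Aurkaip1 (591 and 749 counts) and Gadd45gip1 (442 and 562) both had 0.17, with intervals of 0.02 to 0.33 and -0.01 to 0.35. With spike-ins all 5 are below 0 and 2 are 1.5-fold lower, beside 23.7% of all genes.

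Genes that build or run the mitochondrial ribosome spread more widely than its proteins, at lower counts, and were not set against genes of like depth. Of 22 assembly factors, 4 were 1.5-fold or more higher and 3 lower, beside 13.2% and 13.5% of all genes. Mettl15, a methyltransferase of the small-subunit rRNA, stood out with 72 counts in FLExDUX4 and 16 in WT (ratio 2.65, interval 1.89 to 3.57). Also higher were Tfb1m, which dimethylates the same rRNA (29 and 21 counts, 0.97), the rRNA chaperone Eral1 (173 and 151, 0.71) and the nuclease Ybey (121 and 108, 0.68). Lower were Mrm2, which methylates the large-subunit rRNA (36 and 100 counts, -0.94), Mterf3 (86 and 230, -0.90) and the GTPase Gtpbp10 (24 and 55, -0.66, interval -1.44 to 0.04). Of 13 translation factors, 2 were past 1.5-fold higher and 1 lower, read against the same shares. Mtrf1, of the release factor family, had 97 and 75 counts (0.89, interval 0.44 to 1.34), Taco1, an activator of mt-Co1 translation, 114 and 103 (0.66), and the release factor Mtrf1l 61 and 142 (-0.70, interval -1.16 to -0.26). The elongation factors Tufm (134 and 250 counts, -0.38) and Gfm1 (751 and 940, 0.19) went in opposite directions. With spike-ins 2 assembly factors were past 1.5-fold higher and 8 lower, and 1 translation factor higher and 5 lower, beside 7.82% and 23.7% of all genes.

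Of 22 mitochondrial aminoacyl-tRNA synthetases and amidotransferase subunits, none was 1.5-fold higher and 2 were lower, beside 13.2% and 13.5% of all genes. The lower ones were Nars2, for asparagine, with 18 and 100 counts (-1.93, interval -2.77 to -1.22), and Pars2, for proline, with 6 and 29 counts (-1.67, interval -3.32 to -0.46). Pars2 passed the filter on low counts only through WT, the group where it is high, so its low ratio is partly set by the filter. Of 12 compared genes for transcription and upkeep of mitochondrial DNA, 0 were higher past 1.5-fold and 2 lower, again beside 13.2% and 13.5%. The lower ones were the single-strand binding protein Ssbp1 with 99 and 237 counts (-0.74, interval -1.10 to -0.40) and Mterf1b with 3 and 19. Mterf1b too passed the filter only through WT, so the same limit holds for it. With spike-ins 5 synthetase genes and 4 of these 12 genes were 1.5-fold lower, beside 23.7% of all genes. Tfam, which packages mitochondrial DNA, had 440 and 603 counts and 0.06 (interval -0.12 to 0.24).

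Transcripts of mitochondrial DNA were counted as well. The 2 mitochondrial rRNAs, mt-Rnr1 and mt-Rnr2, summed to a ratio of 0.14 (interval 0.137 to 0.143), which is below 0 with spike-ins. The counts of the 9 compared mRNAs of mitochondrial DNA summed to 96384 CPM in FLExDUX4 and 96549 CPM in WT, a ratio of 0.00. Among them mt-Nd3 stood farthest from 0 of those with over 1000 counts, with 1937 and 2134 counts and 0.38 (interval 0.29 to 0.47). The ratio was 0.17 for mt-Co1, -0.06 for mt-Nd2 and -0.07 for mt-Nd4. No count was listed for mt-Nd4l, mt-Co2, mt-Co3 and mt-Atp8 in either genotype, although every cell with mitochondria uses them, so the zeros say nothing of expression. For mt-Atp6, which is among the 9 compared, only 11 and 11 counts were listed, so its ratio of 0.52 (interval -0.83 to 1.86) is uncertain as well. The 36 nuclear genes with symbols of complex I, which is assembled with proteins made on the mitochondrial ribosome, split 16 above and 20 below with a median of -0.01. They include Ndufa4, whose product belongs to complex IV, and without it the split was 15 to 20. The 76 compared proteins of the cytosolic ribosome split 28 to 48 with a median of -0.03. Neither of these 2 groups had a gene past 1.5-fold. Of their genes 35 of 36 and 64 of 76 had 1000 counts or more, a depth at which 23 and 11 of all 2727 genes were past it higher and lower.

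**Figure D4:**
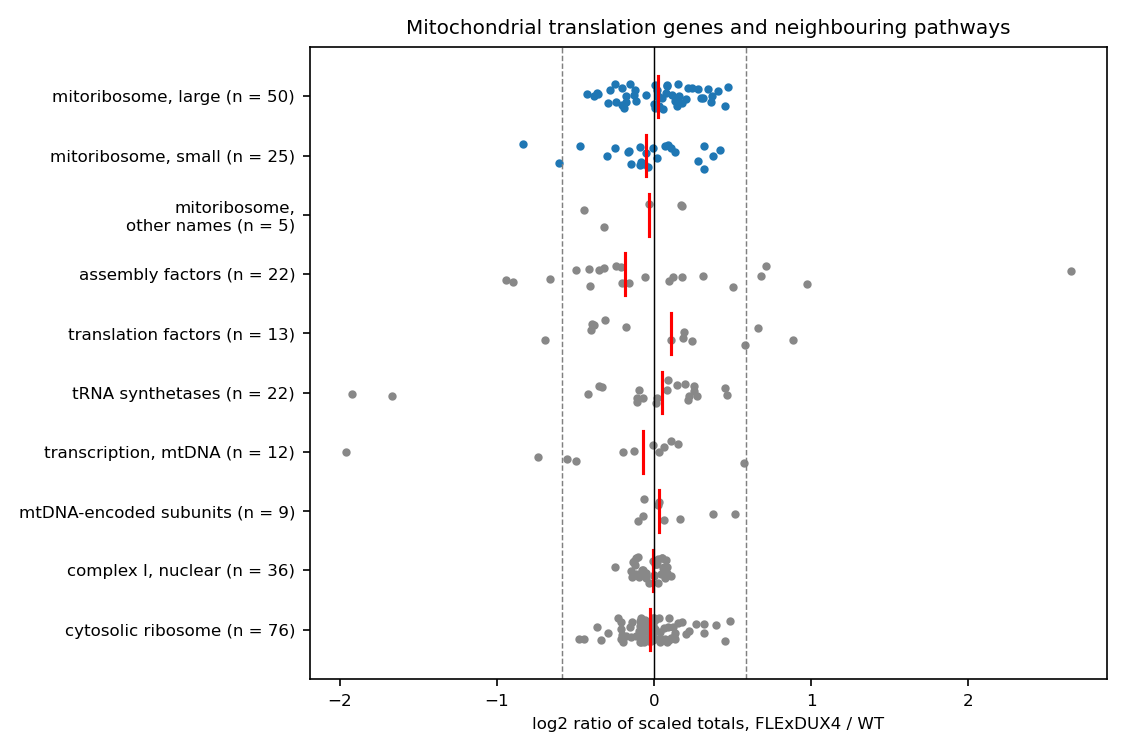
Log2 ratio of FLExDUX4 to WT scaled totals (horizontal) for the genes of each list (vertical; points are genes, spread by chance within a band, red bars are medians, dashed lines mark 1.5-fold). The blue mitoribosomal genes, complex I and the cytosolic ribosome cluster around 0, whereas assembly factors reach from -0.94 to 2.65; with spike-in totals every point moves by -0.28.

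Markers of the cells that muscle holds were checked beside these results. The 12 skeletal muscle markers were high in both groups (135241 CPM in FLExDUX4 and 136385 CPM in WT in sum), as the label says. Of these, 2 were above and 10 below 0, with a median ratio of -0.02. Intervals lay above 0 for 2 and below 0 for 9, beside 24.2% and 24.8% of genes with 1000 or more counts. These markers have so many counts that the interval leaves out 0 even at -0.02 (Pvalb). Farthest from 0 were Des and Myh1, both at -0.19. Adipocyte markers summed to 2353 and 2203 CPM, with 7 of 8 above 0. Of these markers 3 were past 1.5-fold higher (Adipoq, Cfd and Retn) and Lep lower (12 and 31 counts, -0.82), beside 13.2% and 13.5% of all genes. With spike-ins 1 was past it in each direction, beside 7.82% of all genes higher and 23.7% lower. Blood markers summed to 1279 and 1020 CPM, with 5 of 5 compared genes above 0, none past 1.5-fold, and Slc4a1 at 0 and 6 counts. Fibroblast markers summed to 1737 and 1519 CPM, with 6 of 6 above 0 and none past 1.5-fold. Endothelial markers summed to 173 and 193 CPM, with 2 of 6 above 0. Of these, Vwf was past 1.5-fold higher (0.71) and Tek (-0.63) and Cldn5 (-1.34) lower, and with spike-ins 0 were higher and 3 lower, read against the same spike-in shares. Leukocyte markers summed to 26.1 and 25.8 CPM, with 3 of 5 compared genes above 0, Itgam past 1.5-fold higher (24 and 17 counts), Cd68 (23 and 52) and Adgre1 (24 and 55) lower, Cd79a without a count and Cd3e at 3 and 0 counts. Outside muscle, intervals lay above 0 for 6 adipocyte, 5 blood, 3 fibroblast, 1 endothelial and 1 leukocyte marker, and below 0 for 3 endothelial markers only. The shares of all genes were 20.5% and 20.6%. The part of these cell types in the mitoribosomal ratios was not tested.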

How the data were processed

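The authors trimmed the QuantSeq reads, aligned them to GRCm38 joined to spike-in sequences and counted them per gene; the submitters' processing notes name cutadapt 1.16, STAR 2.5.3a and featureCounts 1.6.2. The strand setting is not given in the sources used here. The deposited values used here are counts per gene summed over each genotype, without normalization. The table also holds the authors' comparison (mean normalized count, fold change, standard error, statistic and p-values), which was not used, and 6 columns of single mice whose names match no sample label, which were not used either. For that reason the planned edgeR quasi-likelihood test was not run.

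The filterByExpr function of edgeR 4.0.16, run in R 4.3.3, kept 13396 genes, on which TMM factors for the group totals without spike-ins were computed. Log2 ratios used a pseudocount of 0.5, and 95% Clopper-Pearson intervals came from scipy 1.17.1 (Python 3.11.15). Summed depths were 13110125 (FLExDUX4) and 18367364 (WT) gene counts, with 220016 and 259913 on spike-ins. A count of 0 was given the limit of 3 counts. The script for intervals was tested on simulated data. The alternatives were other scalings, filters, pseudocounts, fold thresholds and memberships.

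The rule for members named in the text took the 5 most abundant of each subunit, those past 1.5-fold with an interval off 0, the Mrps18 paralogs, 12 genes picked for their function and 5 mitoribosomal genes under other names. Beside these, 7 members were named after their values were seen. The members and lists were chosen with earlier results of these data known. Positions and overlaps are from GENCODE M21 on GRCm38 and positions are given for genes whose start matches the table (73 of 78). Upstream sequences are RefSeq's for GRCm38.p6, and only stretches with few annotated exonic bases were printed.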

Additional observations from a re-analysis of the deposited data

How the results depend on the processing

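The counts of members above and below 0, past 1.5-fold and with intervals off 0 stayed within 1.5 times under RLE size factors, upper-quartile scaling, gene totals, no filter, a minimum of 10 counts per genotype, a pseudocount of 2, leaving out Mrps36 and adding the genes under other names. With gene totals the median ratio was -0.015 and the summed ratio -0.011, both below 0 where TMM gave values above it. Scaling to spike-in totals gave 14 members above and 62 below 0, 8 members 1.5-fold lower (23.7% of all genes were), 0 intervals above and 46 below 0 (7.59% and 47.1% of all genes), a median of -0.261 and a summed ratio of -0.257, because it shifts every gene by -0.28. With the lower fold threshold 8 members were higher and 8 lower (22.6% and 22.8% of all genes), and at 2-fold 0 were lower (7.43%). The ratios of the 25 members named by rule stayed within their intervals except with spike-ins, where 23 left them.

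No paired analysis was possible because the columns of single mice match no label. For the same reason leaving out each mouse and DESeq2 were not run. The spread between mice was not used, which limits every ratio, and intervals cover counting error only. A member with under 100 counts, such as Mrps36, cannot be placed within 1.5-fold at this depth.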
